A study of Mus musculus with 35 samples.

Results

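The STAT proteins are latent transcription factors that carry cytokine signals from the cell membrane to the nucleus. A ligand brings together receptor chains and their associated Janus kinases, the kinases phosphorylate a STAT, and paired STATs move to the nucleus and bind DNA. Stat2 pairs within the ISGF3 complex with Irf9 and serves type I interferon signaling. Stat3 is known for signals of IL-6, IL-10 and G-CSF, Stat4 for IL-12, Stat5a and Stat5b for GM-CSF and related growth factors, and Stat6 for IL-4 and IL-13. In myeloid cells these pathways are known to act in the expansion of granulocytes and monocytes and in their polarization. RNA levels say nothing of phosphorylation, so the values here concern how much message of each STAT the cells held.

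The 6 genes Stat2, Stat3, Stat4, Stat5a, Stat5b and Stat6 were taken by name from the 53379 gene identifiers of the count table, and all 6 were present. Their levels were followed in myeloid-derived suppressor cells (MDSC) of mice carrying a pancreatic tumor. All 8 mice were wild type C57BL/6 animals, 6 to 12 weeks old, and all carried an orthotopic tumor of T110299 cells, a single cell line derived from a mouse pancreatic tumor. On days 18 and 20 after tumor induction, 4 mice received 50 µg of poly(I:C) complexed with jetPEI, called poly(I:C)c, which is a ligand of the cytosolic RNA receptor MDA5, and 4 mice received glucose and are called untreated. CD11b+ cells were enriched and sorted into polymorphonuclear MDSC (PMN-MDSC, Ly6Clo Ly6G+) and monocytic MDSC (M-MDSC, Ly6Chi Ly6G-) from spleen and tumor, and whole tumor of untreated mice gave 4 bulk libraries.

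Of 35 libraries, 34 were used, because 1 library of treated tumor M-MDSC held 10 counts. Each group had 4 libraries, except treated splenic PMN-MDSC and treated tumor M-MDSC with 3. The 30 MDSC libraries held 793070 to 4357105 counts and the bulk tumor libraries 3771590 to 8886115. Levels are given as CPM, read counts relative to library size, scaled by trimmed mean of M-values (TMM), and, between genes, as CPM per kilobase of exon (FPKM).

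The markers did not follow the labels everywhere. The summed level of 6 PMN markers was 7330 to 15880 CPM in untreated splenic PMN-MDSC but 350.1 to 1678 CPM in untreated tumor PMN-MDSC. Ly6g, the gene behind the sorting antigen, was at 36.7 to 97.0 CPM in the first group and at 0 to 9.19 CPM in the second. The sum of 5 macrophage markers went the other way, from 244 to 725 CPM in spleen to 2318 to 3030 CPM in tumor. After treatment the PMN markers of tumor PMN-MDSC summed to 1606 to 7952 CPM and those of splenic PMN-MDSC to 25511 to 35523 CPM. Among the 3 treated tumor M-MDSC libraries, 1 had Ly6c2, which encodes a Ly6C antigen, at 2.86 CPM against 418 and 602 CPM in the other two. The same library had the highest sums of macrophage markers (6170 CPM) and T cell markers (132 CPM) of its group. In treated splenic M-MDSC, 1 library stood apart with 45.6 CPM of T cell markers, 120.3 CPM of NK cell markers and 102 CPM of B cell markers, where the median library of the group had 4.68, 9.19 and 13.5 CPM. The 5 M markers summed to 750.2 to 2168 CPM in untreated splenic PMN-MDSC, 3967 to 7849.5 CPM in untreated tumor PMN-MDSC and 4947 to 7582 CPM in untreated splenic M-MDSC. The part of these other cells in the results was not tested. The called treatment results of the members in M-MDSC, and the counts of their target lists, are given with and without these libraries.

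In the GRCm38 assembly the 6 genes lie on 3 chromosomes. Stat4 (ENSMUSG00000062939.11) spans chr1:51987148-52107189. Stat6 (ENSMUSG00000002147.18, chr10:127642986-127660957) and Stat2 (ENSMUSG00000040033.16, chr10:128270559-128292849) share a chromosome. Stat5b (ENSMUSG00000020919.11, chr11:100780731-100850724), Stat5a (ENSMUSG00000004043.14, chr11:100859351-100885169) and Stat3 (ENSMUSG00000004040.16, chr11:100885098-100939540) form a cluster in which 8627 bases separate the first pair. The exons of Stat5a and Stat3 overlap by 72 bases on opposite strands, and the authors' counting used strand. The paralogs Stat5a and Stat5b share sequence. Of the 50-base windows in the longest coding transcript of Stat5a, 15.8% also occurred in Stat5b, and 11.8% of those of Stat5b occurred in Stat5a, so reads in these stretches could be assigned to either gene or lost. No other pair of members shared such a window. A non-coding gene on the same strand, Gm28177, covers 26.7% of the exon bases of Stat4, and it held 0 to 6 counts in the 34 libraries, so the level of Stat4 may be understated.

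The promoter of Stat2 is shown because Stat2 was the member called after poly(I:C)c in most populations. RefSeq gives 9 promoters for the 6 members, and each covers 300 bases around an annotated start. The interferon-stimulated response element that ISGF3 binds was searched as GAAA, any 2 bases and GAAA again, which reads TTTC, any 2 bases and TTTC on the other strand. It occurred in 3.44% of all 32851 mouse promoters of this length and in 2 of the 9 member promoters, those of Stat2 and of an internal start of Stat4. The shorter palindrome bound by most other STAT pairs, searched as TTC, any 3 bases and GAA, occurred in 8.3% of all promoters and in 0 of the 9. The form with 4 bases between TTC and GAA, which Stat6 is known to favor, occurred in 6.95% of all promoters and in 1 of the 9, again that of Stat2, where it did not overlap the first element. In the promoter of Stat2 (GRCm38.p6, chr10:128270248-128270547, plus strand) the capitals mark both elements, the first of them 222 and the second 210 bases before the start.
Stat2 promoter: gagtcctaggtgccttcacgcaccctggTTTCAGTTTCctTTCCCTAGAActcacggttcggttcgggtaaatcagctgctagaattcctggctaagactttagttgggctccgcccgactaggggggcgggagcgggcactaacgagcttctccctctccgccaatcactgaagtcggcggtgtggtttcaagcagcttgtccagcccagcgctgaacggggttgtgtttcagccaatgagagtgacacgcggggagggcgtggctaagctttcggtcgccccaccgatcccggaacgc

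Of 12 interferon-induced genes taken as known ISGF3 targets, 9 had a promoter in the RefSeq table, and 4 of these, Ifit1, Ifit3, Isg15 and Rsad2, held the interferon element. The windows below, with the element in capitals, set the element of Stat2 beside those of Stat4, Ifit1 and Ifit3. Ifit1 and Ifit3 each held 2 such elements, and the one nearer to the start is shown. The Stat4 window (chr1:52008133-52008162, plus strand) lies inside the Stat4 gene, 97 bases before its second annotated start. The Ifit1 window is at chr19:34640794-34640823 and the Ifit3 window at chr19:34583397-34583426, both on the plus strand. A match of letters is not evidence of binding.
Stat2: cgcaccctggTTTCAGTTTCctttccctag
Stat4: aatgtcttcaGAAAGTGAAAtttagaacgg
Ifit1: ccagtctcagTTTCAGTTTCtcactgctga
Ifit3: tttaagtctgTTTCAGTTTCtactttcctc

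Stat2 was higher after poly(I:C)c in 3 of the 4 sorted populations. In splenic PMN-MDSC it was at 70.2, 72.01, 73.0 and 145 CPM in the untreated libraries and at 271, 701 and 754 CPM in the treated ones. The lowest treated library was above the highest untreated one. The level of Stat2, the STAT of the interferon complex ISGF3, rose 6.38-fold there (log2 fold change 2.67, SE 0.40, adjusted p = 0.00651 by edgeR's quasi-likelihood test), where 11.6% of the 7261 genes tested were called at an adjusted p under 0.05. It was the 1 member of 6 called in that comparison. Between the same groups the PMN markers went from 7330 to 15880 CPM without treatment to 25511 to 35523 CPM with it, the macrophage markers from 244 to 725 CPM to 40.1 to 81.0 CPM, the dendritic cell markers from 27.6 to 79.9 CPM to 0.827 to 4.89 CPM and the erythroid markers from 56.6 to 151 CPM to 0 to 4.96 CPM, all without overlap. Their part was not tested.

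**Figure D1:**
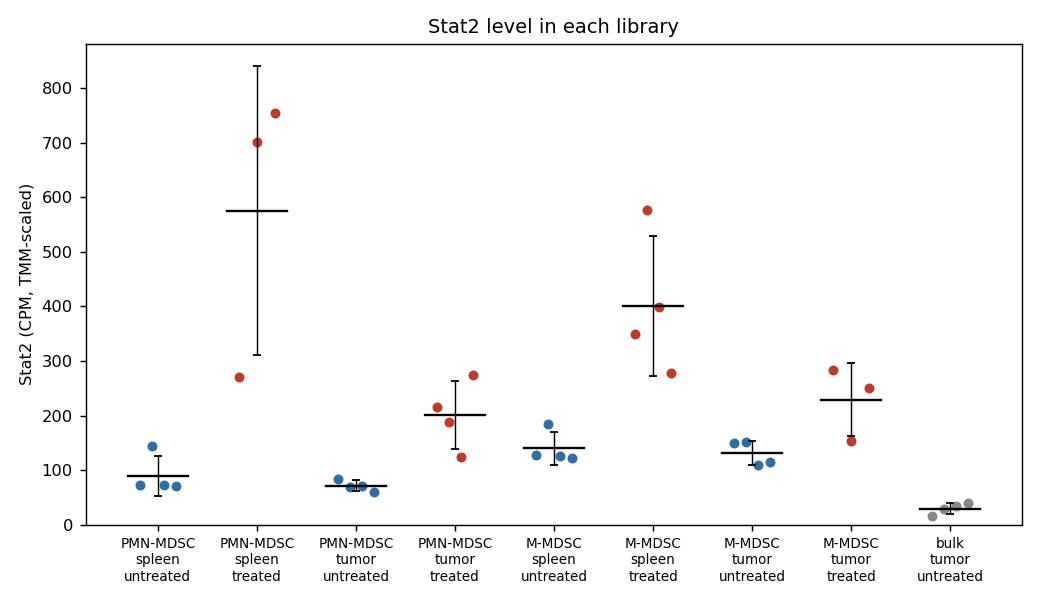
Stat2 in CPM (linear y axis) in each of the 34 libraries, by group (x axis). Blue points are untreated, red points treated and gray points bulk tumor libraries, and black bars give the mean and SD. The treated MDSC libraries lie at 124 to 754 CPM and the untreated MDSC libraries at 60.05 to 185 CPM, and in each of the 4 populations the treated libraries lie above the untreated ones.

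In tumor PMN-MDSC, Stat2 was at 60.05, 68.4, 71.1 and 84.4 CPM without treatment and at 124, 188, 216 and 274 CPM with it. The groups again did not overlap, and the level rose 2.68-fold (log2 fold change 1.42, SE 0.23, adjusted p = 0.00724). Here 3.36% of 8308 genes were called, and Stat2 was the 1 member of 6 among them. The M markers of these libraries summed to 3967 to 7849.5 CPM without and 1326 to 2501 CPM with treatment. Ly6c2, 1 of these markers, went the other way, at 1.85 to 11.2 CPM without and 67.1 to 273 CPM with treatment. The part of these markers was not tested.

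In splenic M-MDSC, Stat2 was at 121, 126, 127 and 185 CPM in untreated and at 277, 349, 400 and 578 CPM in treated libraries. It rose 2.77-fold (log2 fold change 1.47, SE 0.23, adjusted p = 0.00218). In this comparison 19.6% of 8827 genes were called and 2 of 5 members tested, since Stat4 had too few counts. The lowest treated value belonged to the library with T, NK and B cell markers. Without it the log2 fold change was 1.63 (adjusted p = 0.00115).

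In tumor M-MDSC Stat2 was not called. The untreated libraries held 109, 115, 149 and 152 CPM and the treated ones 154, 251 and 283 CPM. The groups did not overlap by a narrow margin, and the log2 fold change of 0.76 (SE 0.25) did not pass the test (adjusted p = 0.132), with 2.88% of 8360 genes called and 1 member of 6. The treated library at 154 CPM was the one with Ly6c2 near 0. Without it the log2 fold change was 0.99 and passed (adjusted p = 0.0282). The fit had 3 treated libraries from the start, since the library of 10 counts was left out.

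The difference in the treatment effect of Stat2 between populations was tested directly and none passed. In PMN-MDSC the effect in tumor minus that in spleen was -1.22 on the log2 scale (SE 0.48, adjusted p = 0.197, with 3.5% of 8047 genes called and 0 of 6 members). In spleen the effect in PMN-MDSC minus that in M-MDSC was 1.31 (SE 0.48, adjusted p = 0.0928, 10.9% of 8417 genes called and 0 of 6 members), and 1.18 without the library with T, NK and B cell markers (adjusted p = 0.147). It passed without the treated PMN-MDSC library of 271 CPM (1.65, adjusted p = 0.0175) and without the untreated one of 145 CPM (1.63, adjusted p = 0.0328). In M-MDSC the effect in tumor minus spleen was -0.69 (SE 0.35, adjusted p = 0.398, 0.79% of genes called and 0 of 5 members tested), and in tumor the effect in PMN-MDSC minus M-MDSC was 0.66 (SE 0.36, adjusted p = 0.644, 0.0239% of genes called and 0 of 6 members). The tool was edgeR in each case. DESeq2 called 0 members in these 4 tests as well, and 6.23%, 15.4%, 3.52% and 0.262% of all genes in the same order. Without the filter on low counts Stat2 passed in PMN-MDSC (adjusted p = 0.0233) and in spleen (adjusted p = 0.00907), and 7 of the 23 member tests had an unadjusted p under 0.05 in edgeR, where 8.59% to 27.6% of all genes did in the 4 tests.

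Stat5a, one of the pair of STAT5 genes, was lower after treatment in tumor M-MDSC. It was at 40.3, 43.9, 46.8 and 48.9 CPM in untreated and at 18.5, 24.7 and 24.8 CPM in treated libraries, and the groups did not overlap. It fell by 1.04 on the log2 scale (SE 0.22, adjusted p = 0.0412). This call was close to the threshold. It was lost on leaving out 6 of the 7 libraries in turn, at adjusted p up to 0.132, and without the library with low Ly6c2 the value was -0.88 (adjusted p = 0.0662). The sum of the 5 M markers also fell in these libraries. It went from 8500.03 to 11932 CPM without treatment to 1892 to 4481 CPM with it. Ly6c2, 1 of the 5, was at 39.1 to 142 CPM without treatment. With treatment Ly6c2 was at 418 and 602 CPM, and at 2.86 CPM in the library with low Ly6c2. The part of these markers in the values of Stat5a and of the other members in tumor M-MDSC was not tested. In the other populations the log2 fold changes of Stat5a were -0.16 in splenic PMN-MDSC, -0.61 in tumor PMN-MDSC and -0.38 in splenic M-MDSC, with adjusted p of 0.749, 0.237 and 0.213.

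Stat5b, the paralog, was lower after treatment in splenic M-MDSC, where it was at 126, 140, 144 and 158 CPM in untreated and at 98.8, 109, 118 and 119 CPM in treated libraries. It fell by 0.40 on the log2 scale (SE 0.11, adjusted p = 0.0279), and the groups did not overlap. In these libraries the sum of the M markers went from 4947 to 7582 CPM without treatment to 2578 to 3828 CPM with it. Ly6c2, 1 of these markers, went the other way, at 100 to 176 CPM without and 719 to 910 CPM with treatment. The erythroid markers went from 18.3 to 50.6 CPM to 0.629 to 2.75 CPM. The part of these markers in the values of splenic M-MDSC was not tested. The call was lost on leaving out 5 of the 8 libraries in turn, at adjusted p up to 0.0997, and without the library with T, NK and B cell markers the value was -0.33 (adjusted p = 0.0748). In tumor PMN-MDSC the treated libraries lay above the untreated ones, at 94.8 to 131 against 76.5 to 91.9 CPM, but the log2 fold change of 0.30 did not pass (adjusted p = 0.349).

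Stat4, the IL-12 factor, had the lowest mean FPKM of the 6 members in all M-MDSC groups and in bulk tumor. In tumor M-MDSC it was at 8.56, 12.4, 22.2 and 23.7 CPM without treatment, from 7 to 81 counts, and at 3.67, 6.38 and 7.66 CPM with it. The groups did not overlap, and the log2 fold change of -1.56 (SE 0.42) had an adjusted p of 0.0751 in edgeR and of 0.0141 in DESeq2. Without the library with low Ly6c2 it was -1.61 (adjusted p = 0.112). T cells are a known source of Stat4. Their 7 markers summed to 5.63 to 13.7 CPM in the untreated and 8.55 to 132 CPM in the treated libraries. In the PMN-MDSC the change was 0.03 in spleen and -0.45 in tumor, with adjusted p of 0.976 and 0.445.

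Over the members tested, the median log2 fold change of treatment was 0.01 in splenic PMN-MDSC, 0.23 in tumor PMN-MDSC, -0.09 in splenic M-MDSC and -0.49 in tumor M-MDSC, and over all genes tested it lay between -0.01 and 0.01. Without the libraries with T, NK and B cell markers and with low Ly6c2 the medians of splenic and tumor M-MDSC were 0.02 and -0.35.

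Stat3 and Stat6 passed the test in none of the 4 populations in the main analysis, nor in any of the 5 others that varied the tool, scaling, filter or fit. For Stat3 the log2 fold changes ran from -0.70 (SE 0.26, adjusted p = 0.181; -0.51 without the library with low Ly6c2) in tumor M-MDSC to 0.34 (SE 0.26, adjusted p = 0.446) in splenic PMN-MDSC. For Stat6 they ran from -0.09 (SE 0.14) in splenic M-MDSC to 0.39 (SE 0.20, adjusted p = 0.338) in tumor PMN-MDSC.

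**Figure D2:**
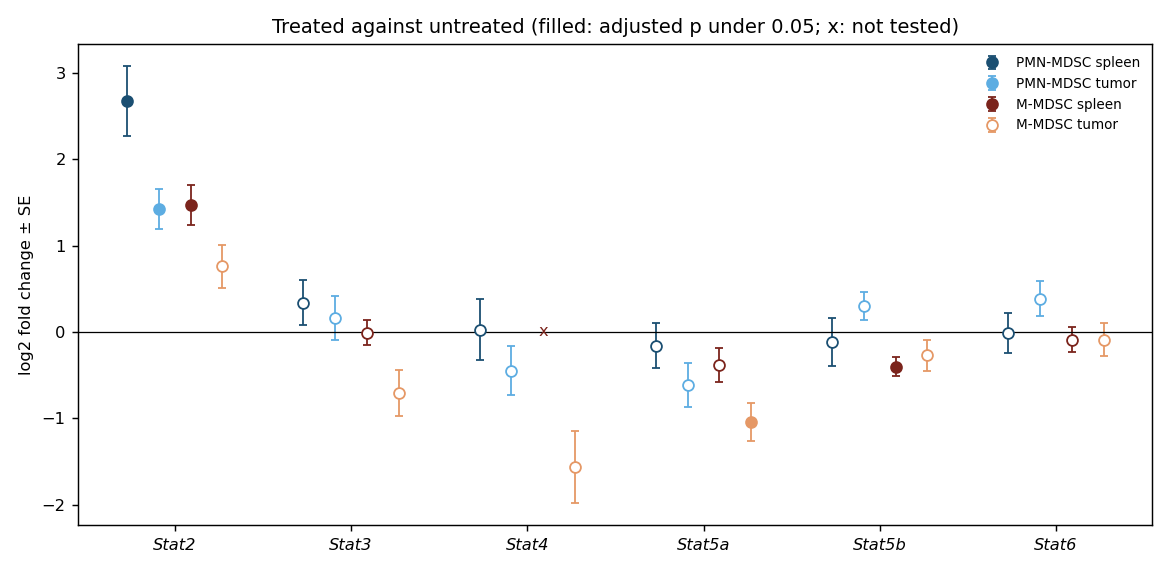
Log2 fold change of treated against untreated (y axis) for each member (x axis), in the 4 sorted populations (colors). Points are edgeR estimates and bars their SE; filled points passed an adjusted p under 0.05 and the cross stands for Stat4, not tested in splenic M-MDSC. Stat2 is positive in all 4, from 0.76 to 2.67, and the other filled points are Stat5a in tumor M-MDSC and Stat5b in splenic M-MDSC, both below 0.

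The makeup of the members within a library does not depend on the scaling between libraries. Stat6 made up 44.4% ± 2.2 (SD, n = 4) of the members' summed FPKM in untreated splenic PMN-MDSC and 35.0% ± 2.9 (n = 4) in untreated tumor M-MDSC, the highest and lowest means of the untreated MDSC groups. The share of Stat2 went from 5.38% ± 0.99 (n = 4) to 25.5% ± 6.2 (n = 3) in splenic PMN-MDSC and from 10.3% ± 2.2 to 20.7% ± 5.1 (n = 4 each) in tumor PMN-MDSC. In M-MDSC it went from 16.6% ± 2.0 to 37.6% ± 4.5 (n = 4 each) in spleen and from 15.6% ± 2.2 (n = 4) to 28.5% ± 2.9 (n = 3) in tumor. Without the libraries that stood apart the treated shares were 38.8% ± 4.6 (n = 3) and 30.1% ± 1.1 (n = 2).

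**Figure D3:**
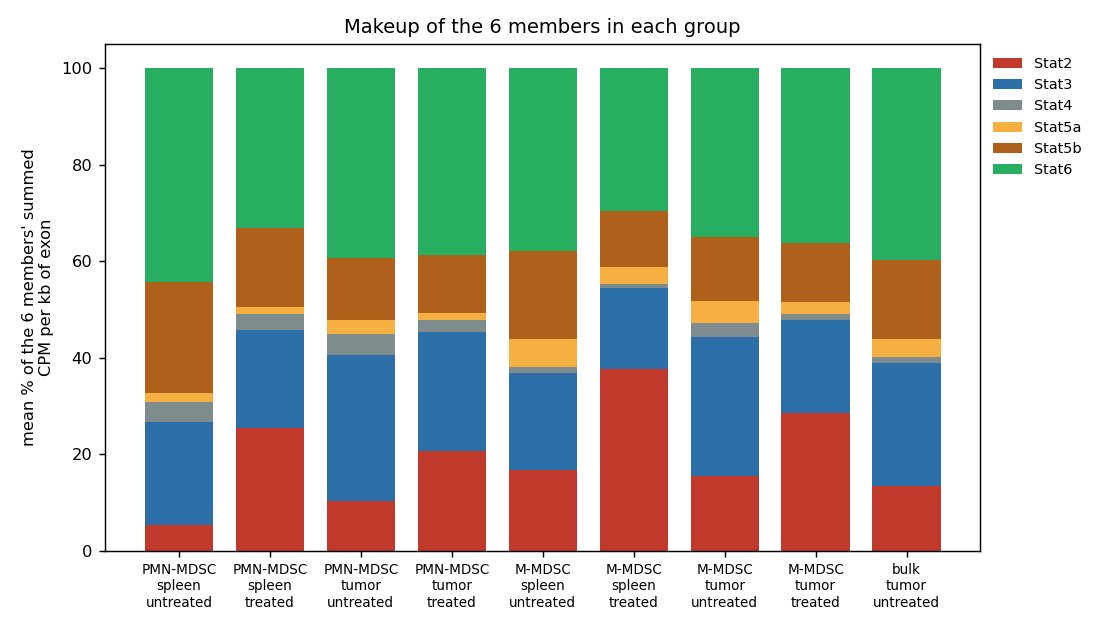
Mean share in percent (y axis) of each member in the summed FPKM of the 6 members, for the 9 groups (x axis); the colors stand for the members and each bar adds to the whole. The segment of Stat2 is wider in the treated bar of each MDSC pair, from 5.38% to 25.5% in splenic PMN-MDSC, and Stat6 is the widest segment in all bars except treated splenic M-MDSC.

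By FPKM, the order of the members was alike among the untreated groups at its ends. Stat6 was highest in all 5 untreated groups, and either Stat4 or Stat5a was lowest. In untreated splenic PMN-MDSC the means were 121 FPKM for Stat6, 63.9 for Stat5b, 58.2 for Stat3, 15.2 for Stat2, 11.1 for Stat4 and 5.43 for Stat5a. The libraries of Stat5b and Stat3 overlapped, as did those of Stat2 and Stat4. In untreated splenic M-MDSC the means were 53.7 FPKM for Stat6, 28.6 for Stat3, 25.6 for Stat5b, 23.6 for Stat2, 8.17 for Stat5a and 1.62 for Stat4, and Stat3, Stat5b and Stat2 overlapped in sequence. In treated splenic M-MDSC, Stat2 had the highest mean (67.7 FPKM against 52.2 for Stat6), and it lay above Stat6 within each of the 4 libraries although the ranges over libraries overlapped.

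**Figure D4:**
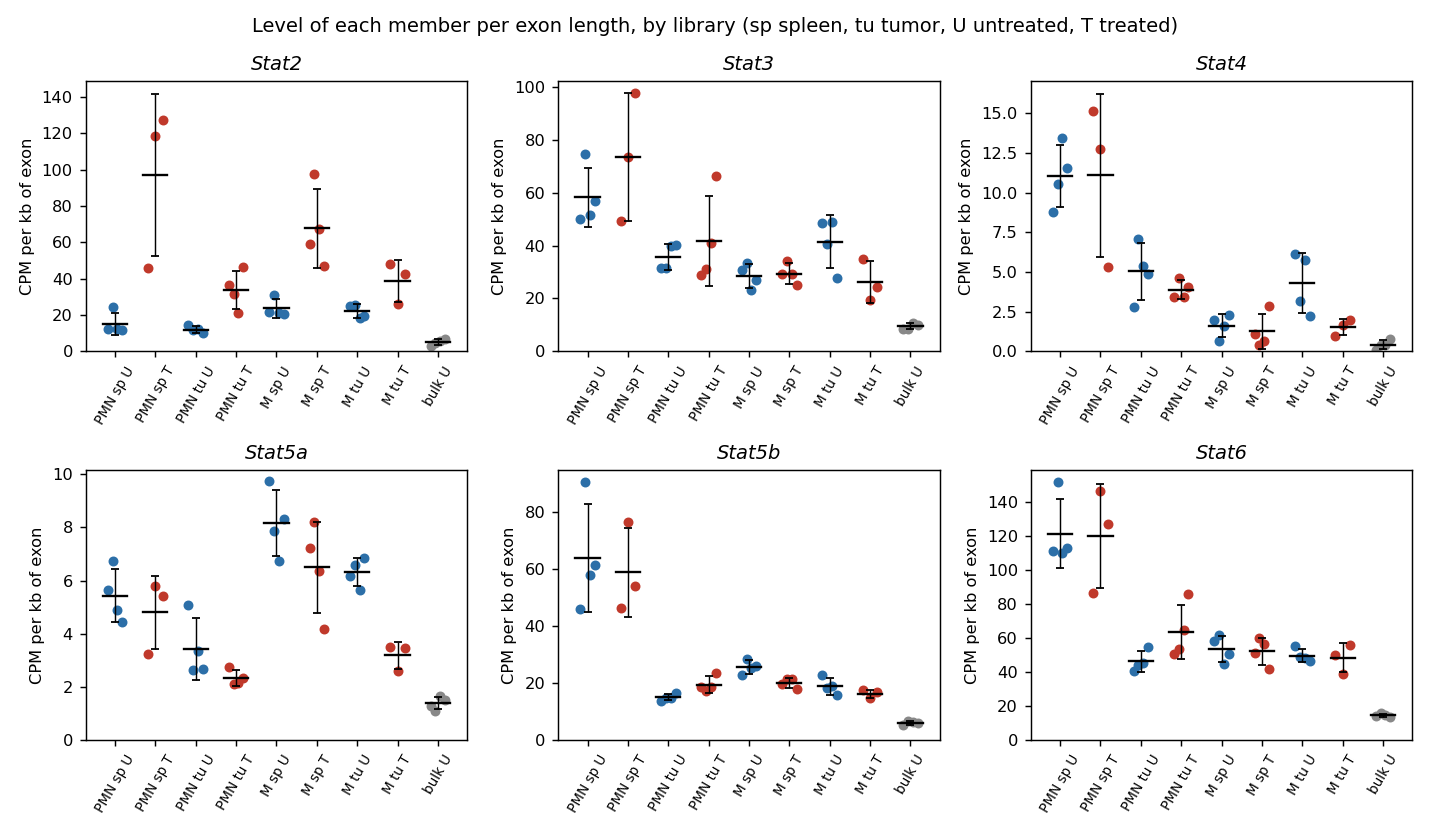
FPKM (linear y axes, each from 0) of the 6 members in each of the 34 libraries, 1 panel per member, with the 9 groups on the x axes. Blue points are untreated, red treated and gray bulk tumor libraries, and black bars give mean and SD. Stat6, Stat3, Stat5b and Stat4 stand highest in the 2 splenic PMN-MDSC groups, Stat5a in splenic M-MDSC, and Stat2 in the treated groups.

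Without treatment the splenic PMN-MDSC and M-MDSC were compared first. Stat4 was 6.4-fold higher in PMN-MDSC (log2 fold change 2.68, SE 0.30, adjusted p = 6.59e-05), at 33.9 to 52.0 against 2.44 to 8.84 CPM. Stat5b was 2.41-fold higher (adjusted p = 3.95e-04), Stat6 2.18-fold (adjusted p = 2.42e-04) and Stat3 1.97-fold (adjusted p = 8.74e-04), each without overlap of the groups. Stat5a was lower by 0.64 and Stat2 by 0.70 on the log2 scale (adjusted p = 0.0101 and 0.0354), both with overlapping groups. In all, 6 of 6 members were called where 64.4% of 8579 genes were, so a call by itself sets no member apart. The call of Stat2 was lost with DESeq2 (adjusted p = 0.0801), with relative log expression scaling (adjusted p = 0.0895) and on leaving out 6 of the 8 libraries in turn, and that of Stat5a without 1 PMN-MDSC library (adjusted p = 0.0527). The median log2 fold change of the 6 members was 1.05, against -0.08 over all genes tested.

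With treatment, 4 of 6 members were higher in splenic PMN-MDSC than in splenic M-MDSC, against 61.2% of 8153 genes called. These were Stat4 (log2 fold change 3.14, SE 0.65), Stat5b (1.54, SE 0.21), Stat3 (1.29, SE 0.24) and Stat6 (1.18, SE 0.23), with adjusted p of 0.00361, 5.23e-04, 0.00207 and 0.00255. All 4 were called without the library with T, NK and B cell markers too, and that library had the highest Stat4 of treated splenic M-MDSC, at 11.1 against 1.65 to 4.33 CPM. Stat2 had a log2 difference of 0.50 (adjusted p = 0.274), which was -0.09 when library totals replaced TMM, so its direction depended on the scaling. Without the treated PMN-MDSC library of 271 CPM it was 0.86 and passed (adjusted p = 0.0315).

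In untreated tumor Stat2 and Stat5a were lower in PMN-MDSC than in M-MDSC by 0.81 and 0.80 on the log2 scale (SE 0.18 and 0.24, adjusted p = 0.0093 and 0.0422), and neither overlapped. This is 2 of 6 members, where 13% of 7623 genes were called. The call of Stat5a was lost on leaving out 7 of the 8 libraries in turn. With treatment 0 of 6 members were called by edgeR, as were 0.38% of 8955 genes. In that comparison 1 member, and 12.9% of all genes, had an unadjusted p under 0.05. It was Stat4, at 13.1 to 18.0 CPM in PMN-MDSC and 3.67 to 7.66 CPM in M-MDSC (log2 difference 1.37, SE 0.32, adjusted p = 0.17), and DESeq2 called it (adjusted p = 0.00766) and 3.37% of all genes. The macrophage marker sums of these tumor groups, 2203 to 4069 CPM in treated PMN-MDSC and 1436 to 6170 CPM in treated M-MDSC, overlapped, and their part in this result was not tested.

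In untreated PMN-MDSC 4 of 6 members were lower in tumor than in spleen, a share near that of all genes, of which 59.1% of 7971 were called. Stat5b, at 254 to 501 CPM in spleen and 76.5 to 91.9 CPM in tumor, was 3.99-fold lower (log2 fold change -1.997, SE 0.24, adjusted p = 6.54e-05). Stat6 was at 483 to 669 CPM in spleen and 180 to 242 CPM in tumor, a 2.45-fold difference (adjusted p = 2.72e-04). Stat4 was 2.03-fold lower (adjusted p = 0.00716) and Stat3 1.53-fold lower (log2 fold change -0.61, adjusted p = 0.0199). The groups overlapped for none of these 4. The call of Stat3 was lost without either of 2 tumor libraries, those with 84.4 and 68.4 CPM of Stat2 (adjusted p = 0.0591 and 0.0738), and without the spleen library of 145 CPM of Stat2 the value was -0.40 (adjusted p = 0.033). Stat2 and Stat5a differed by -0.25 and -0.56 on the log2 scale, with adjusted p of 0.466 and 0.0896, and Stat5a passed without the tumor library of 84.4 CPM of Stat2 (-0.79, adjusted p = 0.0189). The median over the 6 members was -0.82, against 0.01 over all genes tested.

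In treated PMN-MDSC 5 of 6 members were lower in tumor, with 53.6% of 8031 genes called. These were Stat5b (log2 fold change -1.55, SE 0.23), Stat4 (-1.48, SE 0.38), Stat2 (-1.46, SE 0.37), Stat5a (-0.99, SE 0.26) and Stat6 (-0.87, SE 0.26), with adjusted p of 7.69e-04, 0.0109, 0.0102, 0.0117 and 0.0216. Library totals in place of TMM took Stat5a and Stat6 out of the calls (adjusted p = 0.135 and 0.129), and the call of Stat6 was lost on leaving out 3 of the 7 libraries in turn, at adjusted p up to 0.0732. Stat3 passed without the spleen library of 271 CPM of Stat2 (-0.97, adjusted p = 0.0467) and without the tumor library of 274 CPM (-1.02, adjusted p = 0.0165). The groups of Stat2 overlapped by 1 library, with 271 CPM in the lowest spleen and 274 CPM in the highest tumor library.

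These comparisons of PMN-MDSC go along with the marker levels given above, where PMN markers were lower and macrophage and M markers higher in untreated tumor. In treated PMN-MDSC the macrophage markers summed to 40.1 to 81.0 CPM in spleen and 2203 to 4069 CPM in tumor. The part of that difference in the levels of the STAT genes was not tested. A lower level in a sorted population can reflect fewer cells of a type or less RNA of the gene per cell, which cannot be told apart here.

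M-MDSC showed another pattern. Without treatment Stat3 was 1.49-fold higher (log2 fold change 0.58, SE 0.17, adjusted p = 0.0261) and Stat4 2.78-fold higher (1.47, SE 0.38, adjusted p = 0.0118) in tumor than in spleen, while Stat5b was lower by 0.39 (SE 0.13, adjusted p = 0.0432). Stat4 was at 2.44 to 8.84 CPM in spleen and 8.56 to 23.7 CPM in tumor. The groups overlapped for all 3. That is 3 of 6 members where 28.4% of 8298 genes were called, and leaving out single libraries gave 0 to 3. The call of Stat5b was lost on leaving out 6 of the 8 libraries in turn (adjusted p up to 0.112) and that of Stat3 on 5 (adjusted p up to 0.0945). The call of Stat3 was lost with library totals in place of TMM (log2 fold change 0.32, adjusted p = 0.176). The macrophage markers summed to 191 to 253 CPM in spleen and 1301 to 1946 CPM in tumor, and their part was not tested. In treated M-MDSC 0 of 5 members tested were called by edgeR (Stat4 was too scarce), as were 5.87% of 9026 genes. In that comparison 2 members, and 23.3% of all genes, had an unadjusted p under 0.05. They were Stat5a (log2 fold change -1.01, SE 0.26, adjusted p = 0.0617) and Stat2 (-0.78, SE 0.32, adjusted p = 0.186), and DESeq2 called Stat5a (adjusted p = 0.00897) and 12.5% of all genes. Stat5a was at 18.5 to 24.8 CPM in tumor and 29.8 to 58.5 CPM in spleen, without overlap. Without the library with T, NK and B cell markers the value was -1.16 and passed (adjusted p = 0.0235), and without the library with low Ly6c2 it was -0.87 (adjusted p = 0.153).

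**Figure D5:**
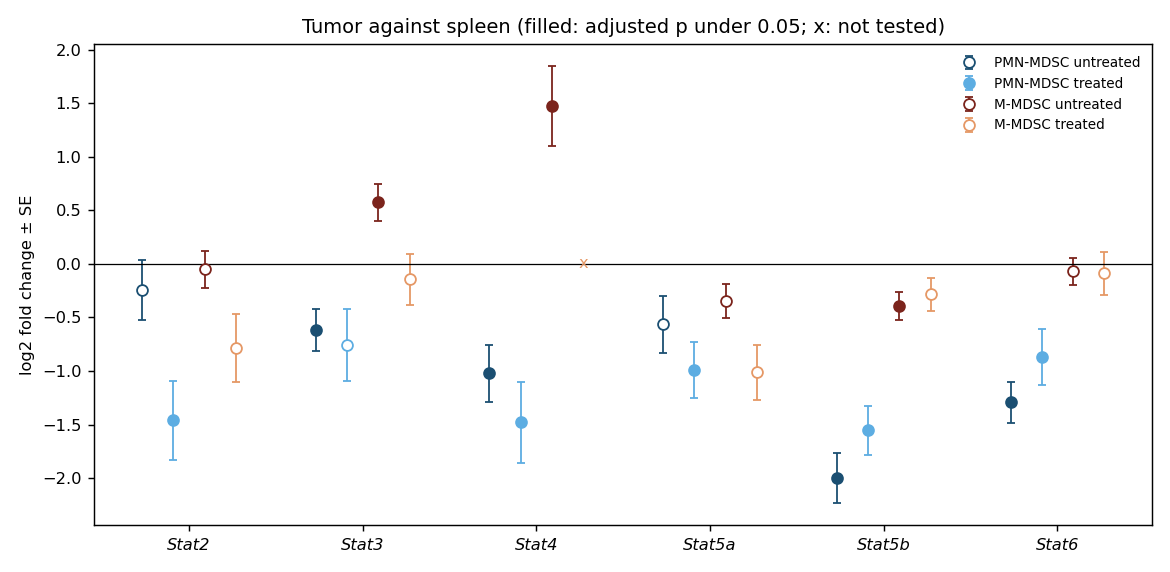
Log2 fold change of tumor against spleen (y axis) for each member (x axis), in PMN-MDSC and M-MDSC with and without treatment (colors). Points are edgeR estimates, bars their SE, filled points passed an adjusted p under 0.05 and the cross stands for Stat4, not tested in treated M-MDSC. All filled points of PMN-MDSC lie below 0, down to -1.997 for Stat5b, while Stat3 and Stat4 of untreated M-MDSC are filled above 0.

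The 2 STAT5 genes, which are neighbors on chromosome 11, did not keep 1 ratio. Within a library, the FPKM of Stat5b was 11.8 ± 2.6 times that of Stat5a in untreated and 12.4 ± 2.2 times in treated splenic PMN-MDSC (SD, n = 4 and 3). It was 3.21 ± 0.64 times in untreated and 3.24 ± 0.77 times in treated splenic M-MDSC (n = 4 each). The ranges of the splenic populations, from 8.10 to 14.2 in PMN-MDSC and from 2.34 to 4.28 in M-MDSC, did not overlap. In tumor the ratio was 4.76 ± 1.56 without and 8.37 ± 1.36 with treatment in PMN-MDSC (n = 4 each), and 3.03 ± 0.63 without (n = 4) and 5.15 ± 0.43 with treatment (n = 3) in M-MDSC, and in both the treated libraries lay above the untreated ones. Without the library with low Ly6c2 the treated tumor M-MDSC had 4.90 ± 0.14 (n = 2). Reads of the shared stretches, assigned to either gene or lost, may move these ratios in either direction, which was not tested.

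Whole tumor held less of every member than the MDSC sorted from untreated tumor. Bulk libraries had 16.8 to 38.8 CPM of Stat2, 78.8 to 101 CPM of Stat3, 0.405 to 3.07 CPM of Stat4, 7.91 to 11.8 CPM of Stat5a, 28.2 to 37.8 CPM of Stat5b and 58.3 to 68.7 CPM of Stat6. Against untreated tumor PMN-MDSC the log2 differences ran from -1.54 (Stat2, SE 0.25) to -3.82 (Stat4, SE 0.48), with the highest adjusted p at 1.86e-04. Against untreated tumor M-MDSC they ran from -1.79 (Stat5b, SE 0.18) to -3.51 (Stat4, SE 0.51), with the highest adjusted p at 7.99e-05. All 6 members were called in both, without overlap of the groups, where 69.5% and 69.2% of genes were called. Stat4 in bulk tumor rested on 3 to 29 counts in a library. Epithelial markers summed to 3710 to 5519 CPM in bulk tumor and to 14.1 to 576 CPM in untreated tumor MDSC.

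The other genes of the pathway were taken from lists of receptors, kinases, inhibitors and known targets, 84 genes in all. In splenic PMN-MDSC 21 of 67 tested passed the test of treatment (16 higher and 5 lower), in tumor PMN-MDSC 17 of 73 (15 and 2), in splenic M-MDSC 31 of 70 (19 and 12) and in tumor M-MDSC 12 of 73 (9 and 3). Of all genes tested, 11.6%, 3.36%, 19.6% and 2.88% were called in the same order. The lists were chosen with earlier results of these data known, so a higher share in them is no independent evidence. Most of the higher calls were among the 12 ISGF3 targets. All 12 of these targets were higher in splenic PMN-MDSC, tumor PMN-MDSC and splenic M-MDSC, with median log2 fold changes of 3.76, 3.09 and 3.63 against 0.01, 0.01 and -0.01 over all genes tested, and 6 of 12 were called higher in tumor M-MDSC (median 2.60 against 0.00). Without the library with low Ly6c2, 11 of 12 were called there (median 2.99) and 18 of 72 genes of all lists, with 4.58% of 7860 genes called, and without the library with T, NK and B cell markers 12 of 12 (median 3.78) and 31 of 69 in splenic M-MDSC, with 20.5% of 8819. Ifi44, an interferon-induced gene, rose by 7.14 (SE 1.09), 3.53 (SE 0.35), 6.11 (SE 0.39) and 4.08 (SE 0.28) on the log2 scale in these 4 populations in the same order. Irf7, an interferon regulatory factor, rose by 2.75, 3.88, 2.95 and 3.01, with adjusted p of 0.0028, 9.60e-05, 6.97e-05 and 0.00216. The interferon-induced Ifit2 rose by 5.58, 3.06, 3.64 and 2.74 and Ifit3 by 4.70, 4.18, 3.62 and 3.59 in the 4 populations, with the highest adjusted p at 0.0128. Ifit1 rose by 4.36, 4.44 and 4.27 and Xaf1, another interferon-induced gene, by 3.88, 2.61 and 1.52 in the first 3 of them, and in tumor M-MDSC they had values of 2.62 and 1.23 (adjusted p = 0.0513 and 0.0751).

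The libraries with the least Stat2 among the treated ones also held the least of these 12 targets in each of the 4 populations. In M-MDSC these were the libraries that stood apart, with T, NK and B cell markers in spleen and with low Ly6c2 in tumor. Among the rest the target sum rose with Stat2 in splenic M-MDSC (349, 400 and 578 CPM with 4332, 5961 and 7711 CPM). In tumor M-MDSC it did not (251 and 283 CPM with 4167 and 3384 CPM). The part of other cells was not tested. In treated splenic PMN-MDSC the library with 271 CPM of Stat2 had a target sum of 5831 CPM, and those with 701 and 754 CPM had 17422 and 12870 CPM. In treated tumor M-MDSC the library with 154 CPM of Stat2 had a sum of 1792 CPM against 3384 and 4167 CPM. Among untreated libraries the highest Stat2 went with the highest sum in splenic PMN-MDSC alone (145 and 1310.1 CPM). In untreated tumor PMN-MDSC the library with the least Stat2 (60.05 CPM) had the highest sum, 399 CPM, and in untreated splenic and tumor M-MDSC the libraries with the most Stat2 (185 and 152 CPM) had sums of 643 and 606 CPM against a highest of 662 and 728 CPM.

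Irf9, the DNA-binding partner of Stat2 in ISGF3, changed less than Stat2. It was called in tumor PMN-MDSC, where it went from 71.7 ± 10.97 to 159 ± 42 CPM (SD, n = 4 each; log2 fold change 1.08, SE 0.20, adjusted p = 0.0163). In splenic PMN-MDSC the log2 fold change was 0.87 (adjusted p = 0.0792), in splenic M-MDSC 0.26 (adjusted p = 0.174) and in tumor M-MDSC 0.40 (adjusted p = 0.289). The difference between the changes of Irf9 and Stat2 was not tested.

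Of the 4 Janus kinases, 1 passed the test in splenic M-MDSC, a share near the 19.6% of all genes called there, and 0 in the other populations by edgeR. Jak2, which serves many growth factor receptors, rose by 0.51 (SE 0.12, adjusted p = 0.0152) in splenic M-MDSC and had a log2 fold change of -0.86 (SE 0.22, adjusted p = 0.0657) in tumor M-MDSC. Jak1 and Tyk2, the kinases of the type I interferon receptor, had log2 fold changes from -0.37 to 0.07 and from -0.27 to 0.39, with no adjusted p under 0.2.

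Among inhibitors, Usp18, which restrains interferon receptor signaling, rose by 3.94, 3.38 and 3.30 on the log2 scale in splenic PMN-MDSC, tumor PMN-MDSC and splenic M-MDSC (adjusted p = 0.00118, 0.00236 and 4.06e-05) and had a value of 2.33 in tumor M-MDSC (adjusted p = 0.0541), which without the library with low Ly6c2 was 2.81 and passed (adjusted p = 1.27e-04). Socs1, an interferon-induced inhibitor of Janus kinases, rose by 1.24 in splenic PMN-MDSC and 2.02 in splenic M-MDSC (adjusted p = 0.0464 and 0.0277). Its mean also went from 6.37 to 17.04 CPM in tumor PMN-MDSC and from 8.47 to 15.47 CPM in tumor M-MDSC. The untreated and treated libraries did not overlap in either tumor population, but Socs1 was not called there. Socs3, a feedback inhibitor downstream of Stat3, passed in none, with values from -1.19 (adjusted p = 0.056) in tumor M-MDSC to 0.90 (adjusted p = 0.0988) in splenic M-MDSC. Cish, a STAT5 target and feedback inhibitor, fell by 1.05 in splenic M-MDSC (SE 0.32, adjusted p = 0.0492), and without the library with T, NK and B cell markers the value was -0.92 (adjusted p = 0.101). It was not called in the other populations. There its mean went from 106 to 53.0 CPM in tumor M-MDSC, from 117 to 78.5 CPM in tumor PMN-MDSC and from 26.5 to 21.4 CPM in splenic PMN-MDSC. Socs6, of the same family, fell by 1.48 in splenic M-MDSC (SE 0.18, adjusted p = 6.18e-04) and had values from -0.34 to 0.996 in the other populations, with no adjusted p under 0.2.

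Among 19 receptor genes, Il2rg, the common gamma chain of several cytokine receptors, was called higher in all 4 populations, by 1.01 to 1.39 on the log2 scale with adjusted p of 0.00975 to 0.0332. In splenic M-MDSC 5 of 17 receptor genes tested were called, where 19.6% of all genes were, and 4 of them were lower: Ifngr1 of the interferon gamma receptor, by 1.15, Il6ra and Il6st of the IL-6 receptor, by 0.90 and 0.86, and Il13ra1 of the IL-13 receptor, by 0.87, with adjusted p of 0.00337, 0.00305, 0.0256 and 0.0235. Il13ra1 also fell by 0.93 in tumor M-MDSC (adjusted p = 0.0389), and without the library with low Ly6c2 the value was -0.89 (adjusted p = 0.055). Il6st also fell by 3.68 in splenic PMN-MDSC (SE 0.56, adjusted p = 0.00659). There the macrophage markers summed to 244 to 725 CPM without and 40.1 to 81.0 CPM with treatment, and their part was not tested.

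The known targets of the other members were counted in the same way, beside 11.6%, 3.36%, 19.6% and 2.88% of all genes called. For the STAT3 list 2, 0, 2 and 2 of the 11, 12, 12 and 13 genes tested were called in splenic PMN-MDSC, tumor PMN-MDSC, splenic M-MDSC and tumor M-MDSC. Hif1a, which drives the response to low oxygen, fell by 1.51 in tumor M-MDSC (adjusted p = 0.0224). The other called genes of this list were Cebpb, a myeloid transcription factor (1.32 in splenic PMN-MDSC and 0.83 in splenic M-MDSC), its relative Cebpd (-1.12 in splenic M-MDSC), the early response gene Fos (-1.35 in splenic PMN-MDSC) and Bcl2l1, an inhibitor of apoptosis (0.82 in tumor M-MDSC, and 0.79 with an adjusted p of 0.0533 without the library with low Ly6c2), each a log2 fold change. Without the libraries that stood apart 2 of 11 were called in splenic M-MDSC and 2 of 13 in tumor M-MDSC, where the 2 were Hif1a and Vegfa, a growth factor of blood vessels (-1.47 and -1.53, adjusted p = 0.0242 and 0.0396). For the STAT5 list the counts were 0 of 6, 0 of 7, 2 of 5 and 2 of 7, and Ccnd2, a cyclin of the G1 phase, rose by 5.11 in splenic and by 1.81 in tumor M-MDSC (adjusted p = 2.67e-05 and 0.00694). For the STAT6 list they were 3 of 5, 2 of 8, 2 of 6 and 1 of 8, all lower. Markers of other cells moved with this list in splenic PMN-MDSC: macrophage markers, among them Mrc1, summed to 244 to 725 CPM without and 40.1 to 81.0 CPM with treatment, dendritic cell markers to 27.6 to 79.9 and 0.827 to 4.89 CPM, and erythroid markers to 56.6 to 151 and 0 to 4.96 CPM. Their part was not tested. Without the libraries that stood apart, 1 of 5 and 1 of 7 of the STAT5 list and 3 of 6 and 2 of 7 of the STAT6 list were called in splenic and tumor M-MDSC. Of the last 2, Chil3, a marker of alternatively activated macrophages, was higher (log2 fold change 1.25, adjusted p = 0.0184). Ccl24, a chemokine of alternatively activated macrophages, fell by 3.08 in tumor PMN-MDSC and by 3.09 in tumor M-MDSC (adjusted p = 0.00302 and 0.0231). Mrc1, also a macrophage marker, fell by 5.14 in splenic PMN-MDSC and 3.06 in splenic M-MDSC (adjusted p = 0.00368 and 0.00401). The transcription factor Klf4 fell by 5.57 and 0.97 in the same populations, and Irf4, another transcription factor, fell by 3.53 in splenic and by 2.86 in tumor PMN-MDSC. For the STAT4 list 0 of 3, 0 of 2, 1 of 3 and 0 of 2 were called, and the 1 was Hlx, a homeobox factor, which fell by 0.67 in splenic M-MDSC (adjusted p = 0.00902), and without the libraries that stood apart the counts in M-MDSC were again 1 of 3 and 0 of 2.

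The target lists were also compared between tumor and spleen. In untreated PMN-MDSC Stat3, Stat5b and Stat6 were lower in tumor. There 9 of 12 tested STAT3 targets, 6 of 7 STAT5 targets and 4 of 7 STAT6 targets were called higher and 1 of each list lower. Of all 7971 genes tested 59.1% were called in either direction, 2346 higher and 2368 lower. In untreated M-MDSC 11 of 12, 5 of 6 and 5 of 7 were called higher and 0, 1 and 2 lower. Of all 8298 genes tested 28.4% were called in either direction, 1302 higher and 1055 lower. Pim1 and Bcl2l1 belong to both the STAT3 and the STAT5 list. The other lists did not run this way: of the STAT4 list 0 of 3 were called higher and 3 lower in untreated PMN-MDSC, and 1 of 2 higher in untreated M-MDSC, and of the ISGF3 targets 1 of 10 was higher and 6 lower in PMN-MDSC and 3 of 11 higher and 3 lower in M-MDSC. In the same PMN-MDSC libraries the macrophage markers, among them Mrc1 of the STAT6 list, summed to 244 to 725 CPM in spleen and 2318 to 3030 CPM in tumor, and the M markers to 750.2 to 2168 and 3967 to 7849.5 CPM. Their part was not tested. Socs3 was higher by 1.27 in tumor PMN-MDSC and by 3.93 in tumor M-MDSC (SE 0.30 and 0.28), and Cish by 2.24 and 3.08 (SE 0.34 and 0.35), with the highest adjusted p at 0.0044.

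Over the 8 MDSC groups, the gene whose mean log2(CPM + 1) ran most like that of Stat2 was Zbp1 (Pearson r = 0.998 over 8 group means), followed by Eif2ak2 (0.994), among 8527 genes compared. For Stat6 these were Smap2 (0.999) and Fam104a (0.994), for Stat5b Zfp276 (0.995) and Bid (0.995), for Stat4 Ksr1 (0.993) and Arid4b (0.991), for Stat3 Tle3 (0.986) and Rpph1 (0.985), and for Stat5a Atad2b (0.965) and Tmem131 (0.958). Among the members themselves, Stat5b and Stat6 had r = 0.968 and Stat3 and Stat4 r = 0.932, while Stat2 had r from -0.21 to 0.20 with the other 5. With 8 group means that share libraries, sort and depth, these values describe the groups and no test was made.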

How the data were processed

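RNA-seq libraries were made from sorted MDSC and bulk tumor by ribosomal depletion and a stranded kit without molecular identifiers. The authors aligned reads to GRCm38 with ContextMap and BWA, counted them by strand with featureCounts (Subread 1.4.6-p3) and deposited raw counts per gene identifier. The titles number the mice across populations, so different groups share mice, but column names gave the group of each library and not its mouse. Libraries therefore entered as separate samples, comparisons between populations and organs did not use the shared mice, and p-values measure the spread between libraries. The 48 pairs of libraries within groups differed by more than sampling noise (chi-square per degree of freedom 8.11 to 66.5).

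Counts were tested with edgeR 4.0.16 in R 4.3.3 (robust quasi-likelihood F-test, TMM scaling, genes averaging 25 counts or more in the fitted libraries, Benjamini-Hochberg adjustment over all genes tested), for 14 pairwise comparisons, each on its own libraries, and 4 differences of treatment effects. A gene was called at an adjusted p under 0.05. All adjusted p in the text are from this test unless DESeq2 1.42.0 is named. The scripts were tested on simulated data. CPM used TMM factors over the 34 libraries, and FPKM divided CPM by summed exon length (GENCODE M21). Alternatives were DESeq2, relative log expression scaling, library totals, no filter, 1 fit over all groups, the threshold of the study (adjusted p under 0.001 and at least 2-fold) and leaving out each library. The threshold of the study on DESeq2's values, and pathway lists, shares and ratios without the 2 libraries that stood apart, were added after seeing the data. The likeness of genes used log2(CPM + 1), with a pseudocount of 1. Named pathway genes were the 3 called genes of smallest adjusted p of each list in each treatment comparison and 7 genes always given. Further comparisons given for these genes, and Il6st and Il13ra1 in splenic M-MDSC, were chosen after their values were seen. The members and lists were chosen with earlier results of these data known. Depth limits the precision of low genes, and counting error alone is a lower bound of it. The genotype of the tumor line is not reported here.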

Additional observations from a re-analysis of the deposited data

Results flagged for a closer look

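In 42 sets of libraries (a member in a group of 4) the highest and lowest library were compared with the others by Dixon's test, and 3 stood apart at the 95% level, where chance gives about 1 set in 20. In untreated splenic PMN-MDSC, 1 library held 145 CPM of Stat2 and 669 CPM of Stat6, far above the others, which held 70.2 to 73.0 and 483 to 496 CPM. The same library was also the highest of its group for Stat3 (709.8 CPM), Stat5a (48.0 CPM) and Stat5b (501 CPM). In untreated splenic M-MDSC, 1 library held 185 CPM of Stat2, and the others 121 to 127 CPM. Leaving out either library did not change the call of Stat2 after treatment.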

How the results depend on the processing

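No paired analysis was possible because the columns of the count table carry no mouse number that could be matched to the titles by name. The calls of Stat2 after treatment in splenic PMN-MDSC, tumor PMN-MDSC and splenic M-MDSC held under the 5 other fits (log2 fold changes 2.38 to 2.71, 1.42 to 1.47 and 1.398 to 1.51) and without each library (2.44 to 3.02, 1.24 to 1.59 and 1.23 to 1.63). On edgeR's values none passed the threshold of the study, which left 0 members in each of the 4 treatment comparisons, 2, 1 and 0 between tumor and spleen in untreated PMN-MDSC, treated PMN-MDSC and untreated M-MDSC, and 3, 1 and 0 between PMN-MDSC and M-MDSC in untreated spleen, treated spleen and untreated tumor. On DESeq2's values, an alternative chosen after seeing the data, Stat2 passed that threshold in the 3 named comparisons, which left 1, 1, 1 and 0 members after treatment in splenic PMN-MDSC, tumor PMN-MDSC, splenic M-MDSC and tumor M-MDSC, 2, 2 and 0 between tumor and spleen in untreated PMN-MDSC, treated PMN-MDSC and untreated M-MDSC, and 4, 4 and 0 between PMN-MDSC and M-MDSC in untreated spleen, treated spleen and untreated tumor. Of all genes, 3, 20, 218 and 1 passed it after treatment with edgeR and 517, 193, 610 and 215 with DESeq2. In the 3 comparisons of tumor and spleen these were 1727, 1045 and 714 with edgeR and 2591, 2610 and 981 with DESeq2, and in the 3 of PMN-MDSC and M-MDSC 1993, 1728 and 126 with edgeR and 2935, 3259 and 389 with DESeq2. One direction turned: Stat2 in PMN-MDSC against M-MDSC of treated spleen was -0.094 on the log2 scale with library totals in place of TMM and 0.50 with TMM.

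DESeq2 called 2 members in place of 1 after treatment in tumor M-MDSC, and 1 in place of 0 both between tumor and spleen in treated M-MDSC and between PMN-MDSC and M-MDSC in treated tumor, where it called 9.53%, 12.5% and 3.37% of all genes in place of 2.88%, 5.87% and 0.38%. With 1 fit over all groups, 1 member in place of 2 was called after treatment in splenic M-MDSC, 2 in place of 1 in tumor M-MDSC, 1 in place of 3 and 1 in place of 0 between tumor and spleen in untreated and treated M-MDSC, and 1 in place of 2 between PMN-MDSC and M-MDSC in untreated tumor, with 13.7%, 8.79%, 21.6%, 15.2% and 7.61% of all genes called in place of 19.6%, 2.88%, 28.4%, 5.87% and 13%. Library totals gave 3 in place of 5 between tumor and spleen in treated PMN-MDSC and 1 in place of 0 in treated M-MDSC, with 53.1% and 5.74% of all genes called. Without the filter on low counts the counts were 1 and 3 after treatment in splenic and tumor M-MDSC, 2 between tumor and spleen in treated M-MDSC, and 1 each for the differences of treatment effects between compartments in PMN-MDSC and between populations in spleen, with 7.7%, 4.1%, 7.22%, 2% and 5.1% of all genes called. Relative log expression scaling changed none of the 18 counts by over 1.5 times. The causes were not tested.

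Leaving out single libraries gave 1 to 2 members after treatment in splenic M-MDSC, 0 to 1 in tumor M-MDSC, 0 to 3 and 0 to 1 between tumor and spleen in untreated and treated M-MDSC, 1 to 2 between PMN-MDSC and M-MDSC in untreated tumor and 0 to 1 for the difference of treatment effects between populations in spleen. Between tumor and spleen the range was 3 to 4 in untreated and 4 to 6 in treated PMN-MDSC. Where an arm had 3 libraries, 2 remained. Library totals moved 7 of 54 group means by more than 1 SD: in treated splenic PMN-MDSC Stat5b was at 234 and Stat6 at 379 CPM, in untreated splenic M-MDSC Stat3 at 320.2, Stat5a at 68.6, Stat5b at 167 and Stat6 at 278 CPM, and in treated splenic M-MDSC Stat5b at 120.2 CPM.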
